A study of Mus musculus with 9 samples.

Results

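The genes described here were the 8 genes of hyaluronan turnover and their neighbour *Nat6*, out of 47729 genes in the expression tables. They comprised the hyaluronidase genes *Hyal1*, *Hyal2* and *Hyal3*, the hyaluronan synthase genes *Has1*, *Has2* and *Has3*, the hyaluronan receptor gene *Cd44* and *Nat6*, a gene that overlaps *Hyal1*. They were taken by symbol from the tables of all pools. The set was put together because *Hyal1* and *Nat6* were lower in *Le-Cre* lenses than in *FVB/N* lenses, so the values of that comparison describe the choice and received no test.

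Hyaluronan is a long, unsulfated polysaccharide of the extracellular matrix. Synthases in the plasma membrane make it from nucleotide sugars and extrude it, CD44 binds it at the cell surface, and hyaluronidases cut it, with HYAL2 active at the cell surface and HYAL1 in lysosomes. *Nat6*, named *Naa80* in current annotation, encodes the enzyme that acetylates the amino terminus of mature actin.

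RNA-Seq measured polyadenylated RNA of whole newborn lenses (P0) from wild-type *FVB/N* mice and from mice hemizygous for the *P0-3.9GFPCre* or the *Le-Cre* transgene, both on the *FVB/N* background. Each of the 3 lines had 3 pools, and a pool combined the 6 lenses of 3 mice. Both transgenes express CRE and GFP from a *Pax6* promoter fragment that is active in the lens and pancreas, and every line shares the *FVB/N* background. Homozygotes were not measured, each transgenic line carries its own insertion, and the sex of the pups is not given in the sources used here. Total expected counts, the number of reads that RSEM assigned to all genes of a pool, ranged from 20670968 to 28098059 across the 9 pools. Lens fibre markers summed to between 215616 and 263034 TPM (transcript level scaled for gene length and library size) in every pool, with overlap between lines. Lens epithelium markers summed to 212.63 to 231.67 TPM in wild-type pools, 210.3 to 230.09 TPM in the *P0-3.9GFPCre* pools and 185.87 to 211.77 TPM in those of *Le-Cre*, so that the *Le-Cre* sums were all below the wild-type ones. The cornea markers *Krt12* and *Krt14* were at 0 in all pools. *Krt5* was at 0 except in *Le-Cre*, where the summed cornea list reached 0.04 TPM. The sums of the other lists overlapped between the lines, at 25.32 to 46.07 TPM for blood vessel, 57.72 to 183.07 TPM for blood, 0.43 to 1.81 TPM for macrophage, 0.17 to 1.23 TPM for retina, 0.61 to 4.67 TPM for pigmented epithelium and 0.9 to 3.07 TPM for fibroblast markers. The summed level of 4 Y-linked genes (*Uty*, *Kdm5d*, *Eif2s3y* and *Ddx3y*) also differed between lines. As CPM, counts scaled to a fixed library size, it was 121 to 193 in wild-type pools, 1.66 to 135 in the *P0-3.9GFPCre* pools and 0.602 to 74.2 in those of *Le-Cre*. The *Le-Cre* values were thus all below the wild-type ones.

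The 3 hyaluronidase genes and *Nat6* lie side by side on chromosome 9 and are transcribed in the same direction. On GRCm38, *Hyal2* (ENSMUSG00000010047) spans chr9:107567945-107572779, *Hyal1* (ENSMUSG00000010051) chr9:107576927-107581710, *Nat6* (ENSMUSG00000079334) chr9:107578887-107584050 and *Hyal3* (ENSMUSG00000036091) chr9:107580818-107587359, all on the plus strand. *Hyal2* ends 4.1 kb before *Hyal1* begins, whereas the spans of *Hyal1* and *Nat6* overlap by 2.8 kb and those of *Nat6* and *Hyal3* by 3.2 kb. The other members lie elsewhere, *Has1* (ENSMUSG00000003665) at chr17:17843323-17855205 on the minus strand, *Has2* (ENSMUSG00000022367) at chr15:56665627-56694539 on the minus strand, *Has3* (ENSMUSG00000031910) at chr8:106870242-106884566 on the plus strand and *Cd44* (ENSMUSG00000005087) at chr2:102811141-102901665 on the minus strand.

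**Figure D1:**
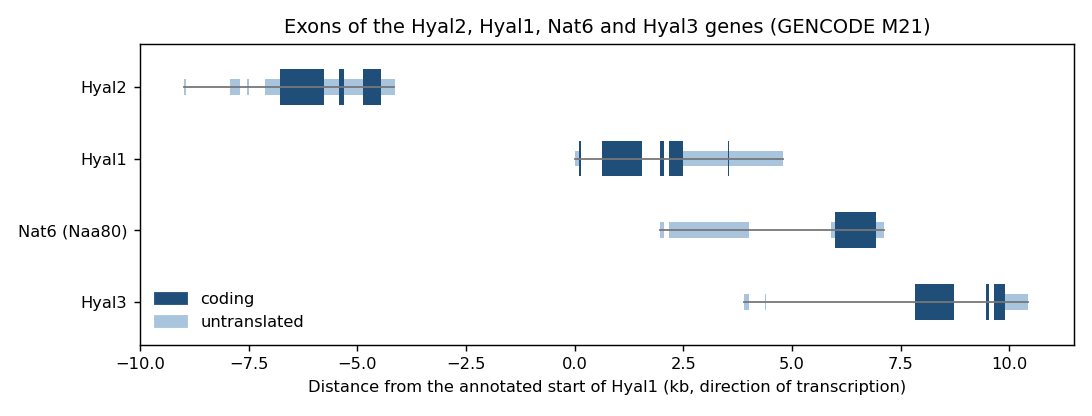
Exon map of *Hyal2*, *Hyal1*, *Nat6* and *Hyal3* in GENCODE M21, with the distance from the start of *Hyal1* in kb on the horizontal axis. Dark boxes are coding, light boxes are untranslated, and all transcripts of a gene are merged. The *Nat6* leader lies over the coding end and 3′ part of *Hyal1*, whereas *Hyal2* overlaps no other gene of the group.

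Much of the RNA sequence of *Hyal1* and *Nat6* is shared, which bears on how a short read can be assigned. Of the 3777 exonic bases of *Hyal1*, 1920 (50.83%) are also exonic in *Nat6*, and these make up 60.88% of the 3154 exonic bases of *Nat6*. The overlap is not coding in *Nat6*, since 0 of its 942 coding bases lie in *Hyal1* exons. It covers 410 of the 1400 coding bases of *Hyal1*. In stretches of 51 bases, about the length of a read, 49.6% of *Hyal1* and 58.1% of *Nat6* occurred in the other gene. For *Hyal3* that share was 3.65% with *Hyal1* and 3.55% with *Nat6*. No stretch of *Hyal2*, *Has1* or *Cd44* occurred in another gene. *Has3* shared 4.77% of its stretches with *Chtf8* and *Has2* 2.05% with *Has2os*, both on the opposite strand, and the sources used here do not say whether reads were counted by strand. Where RSEM divided a read between *Hyal1* and *Nat6*, the split is an estimate, so the summed level is given beside the separate ones.

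The upstream sequence of *Hyal1* is shown because *Hyal1*, *Nat6* and *Hyal3* were low in the same pools and because *Hyal1* is the only one of these 3 genes whose RefSeq window, from 250 bases before to 50 after the start, reached outside exons. The windows of *Naa80* and *Hyal3* lay entirely, for 300 of 300 bases, in exons of *Hyal1*. The part of each window before the first exon is given 5′ to 3′ on the strand of the gene from RefSeq (GRCm38.p6), for *Hyal1* at chr9:107576700-107576926 on the plus strand and, as the member that moved in the other direction, for *Cd44* at chr2:102901666-102901915 on the minus strand. Capitals mark matches to the CCAAT box (CCAAT) or the GC box (GGGCGG) on either strand.
Hyal1: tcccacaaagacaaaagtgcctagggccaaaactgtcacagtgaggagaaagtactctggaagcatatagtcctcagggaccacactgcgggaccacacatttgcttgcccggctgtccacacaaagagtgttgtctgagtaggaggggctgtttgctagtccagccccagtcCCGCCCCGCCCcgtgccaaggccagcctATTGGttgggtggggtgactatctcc
Cd44: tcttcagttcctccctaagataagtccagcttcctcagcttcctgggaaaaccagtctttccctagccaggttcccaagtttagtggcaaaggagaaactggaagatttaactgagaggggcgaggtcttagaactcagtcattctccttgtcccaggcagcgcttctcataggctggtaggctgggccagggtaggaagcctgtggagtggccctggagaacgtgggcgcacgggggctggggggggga
The *Hyal1* stretch held 1 CCAAT box and 2 overlapping GC boxes, all on the reverse strand, and the *Cd44* stretch held no match. Over the whole window of 300 bases, *Hyal1* matched both motifs and *Cd44* matched the GC box, outside the printed stretch. Among 32851 RefSeq windows of 300 bases, 37.4% held a CCAAT box and 35.7% a GC box. Neither *Hyal1* nor *Cd44* matched TATAAA (13.6% of windows) or CACGTG (7.15% of windows). The *Hyal1* window held 8 CpG dinucleotides, the *Cd44* window 6 and the median window 7. RefSeq windows were at hand for 6 of the 8 genes.

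The level of each gene was first compared as TPM, which corrects for length and therefore allows genes to be ordered. *Cd44* had the highest level in every line, at 19.93 ± 0.792 TPM in *FVB/N*, 22.29 ± 2.10 TPM in *P0-3.9GFPCre* and 26.01 ± 3.72 TPM in *Le-Cre* (mean ± SD, n = 3 pools, as for all such values). In *FVB/N* lenses *Hyal2* (8.05 ± 0.954 TPM), *Nat6* (7.58 ± 0.984 TPM) and *Hyal1* (7.26 ± 1.62 TPM) came next. These neighbours in the order overlapped between pools. *Hyal3* (3.84 ± 1.07 TPM) and *Has3* (2.72 ± 1.29 TPM) followed, also with overlapping pools. *Has1* (0.163 ± 0.117 TPM) and *Has2* (0.00333 ± 0.00577 TPM) were at the bottom in that order in every line. In *Le-Cre* lenses the order of the middle genes was *Hyal2* (10.49 ± 1.27 TPM), *Nat6* (3.91 ± 0.425 TPM), *Hyal1* (3.19 ± 0.324 TPM), *Has3* (2.79 ± 1.42 TPM) and *Hyal3* (1.89 ± 0.511 TPM). There the *Hyal2* and *Nat6* pools each stood clear of the next gene, and the last 3 overlapped. The *P0-3.9GFPCre* order was the same as in *Le-Cre* with *Nat6* (5.77 ± 0.966 TPM) and *Hyal1* (4.35 ± 1.91 TPM) overlapping.

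**Figure D2:**
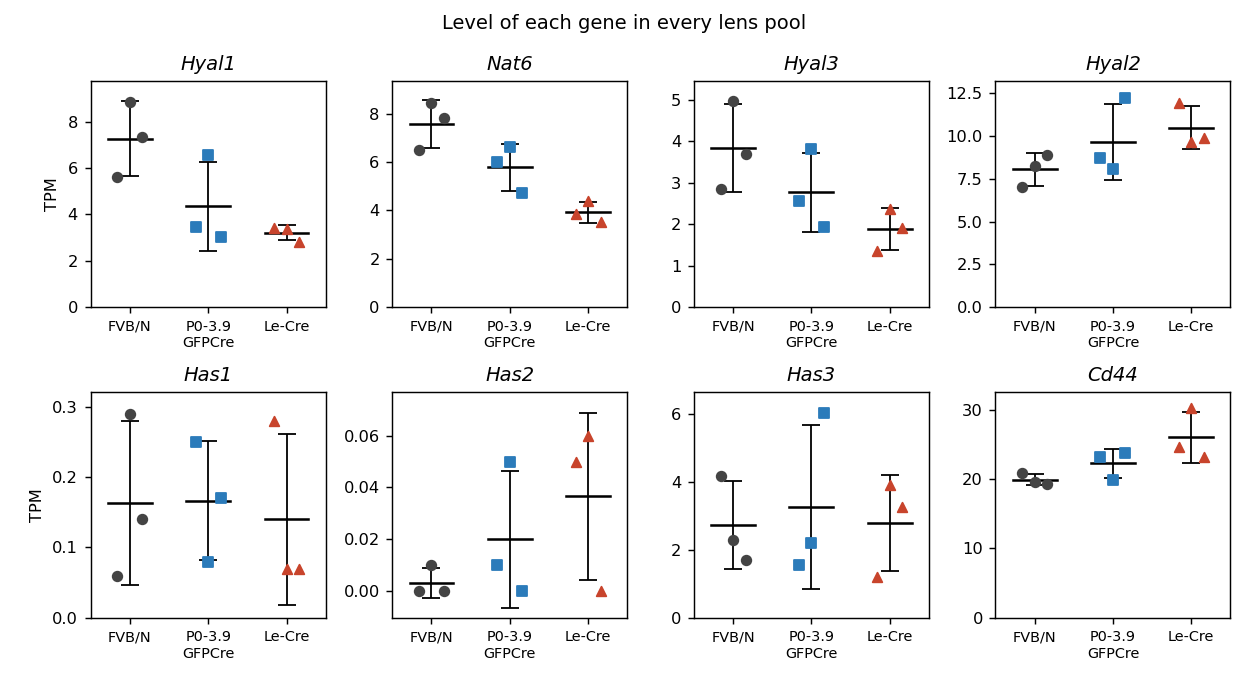
TPM of the 8 genes in each of the 9 pools, by line. Points are pools, the horizontal line is the mean and the bar is 1 SD on each side (n = 3). For *Hyal1*, *Nat6* and *Hyal3* all *Le-Cre* pools lie below all *FVB/N* pools, and *Has1* and *Has2* stay at or below 0.29 TPM in every pool.

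For comparisons between lines, counts were scaled to CPM of the library size normalized by edgeR's TMM method, and log2 fold changes are from edgeR. HYAL1 is the lysosomal enzyme that cuts hyaluronan into small oligosaccharides. *Hyal1* was at 15.36, 23.59 and 20.91 CPM in the 3 *FVB/N* pools, at 8.80, 16.88 and 8.07 CPM in the *P0-3.9GFPCre* pools and at 8.81, 8.44 and 7.79 CPM in the *Le-Cre* pools. The *Le-Cre* pools were alike and all below *FVB/N*. The *P0-3.9GFPCre* pools split, with replicates 1 and 3 within the *Le-Cre* range and replicate 2 between the *FVB/N* values. The log2 fold change was −1.25 (SE 0.251) in *Le-Cre* relative to *FVB/N*. In bulk RNA, fewer cells of a type and less RNA per cell cannot be told apart.

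NAT6 acts on actin and is not an enzyme of hyaluronan metabolism. *Nat6* was at 12.34, 15.27 and 15.32 CPM in the *FVB/N* pools, at 11.14, 12.17 and 8.73 CPM in those of *P0-3.9GFPCre* and at 6.63, 7.98 and 6.90 CPM in those of *Le-Cre*. On this scale the 3 lines did not overlap, with *FVB/N* highest and *Le-Cre* lowest. As TPM the *P0-3.9GFPCre* pools (4.71 to 6.60) overlapped those of *FVB/N* (6.50 to 8.43). The *Le-Cre* pools (3.53 to 4.37 TPM) lay below both. The log2 fold change in *Le-Cre* relative to *FVB/N* was −0.997 (SE 0.146).

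The sum of *Hyal1* and *Nat6* does not depend on how reads were divided between them. It was 27.71, 38.85 and 36.23 CPM in the *FVB/N* pools, 19.94, 29.05 and 16.79 CPM in those of *P0-3.9GFPCre* and 15.43, 16.42 and 14.68 CPM in those of *Le-Cre*. All *Le-Cre* pools lay below all pools of both other lines, narrowly so for *P0-3.9GFPCre* (16.42 against 16.79 CPM). With *Hyal3* added, the *Le-Cre* pools (17.27 to 19.53 CPM) overlapped those of *P0-3.9GFPCre* (19.27 to 33.95 CPM). The log2 fold change of the sum relative to *FVB/N* was −1.14 (SE 0.183), and −1.12 (SE 0.190) with *Hyal3* added. The share of *Nat6* in the summed counts of the pair was 39.3% to 44.55% in *FVB/N*, 41.89% to 55.87% in *P0-3.9GFPCre* and 42.93% to 48.6% in *Le-Cre*. These ranges overlapped. RSEM's own uncertainty of a count, its posterior SD, was at most 6.83% of the posterior mean count for *Hyal1* and 6.18% for *Nat6* in any pool. The posterior mean itself could differ from the expected count by more than this SD. In *Le-Cre* replicate 3 it was 158.43 against 172.19 for *Hyal1* and 165.83 against 152.45 for *Nat6*. The effective length of *Hyal1*, which falls when shorter isoforms take more of the reads, was 2758 to 2850 bases in *Le-Cre* and 2871 to 2896 bases in *FVB/N*. For *Nat6* the effective lengths overlapped, at 1834 to 2074 bases against 1948 to 2004 bases.

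*Hyal3*, a hyaluronidase gene whose enzyme has little known activity of its own, was low in the same line. It was at 3.73, 6.53 and 5.29 CPM in the *FVB/N* pools, at 3.25, 4.90 and 2.48 CPM in those of *P0-3.9GFPCre* and at 1.84, 3.11 and 2.82 CPM in those of *Le-Cre*. The *Le-Cre* pools were all below *FVB/N*, with a log2 fold change of −1.002 (SE 0.300). *Hyal2*, whose enzyme sits at the cell surface and makes the first cut in long chains, did not share this pattern. It was at 9.76, 9.42 and 11.06 CPM in the *FVB/N* pools, at 10.65, 10.22 and 12.93 CPM in those of *P0-3.9GFPCre* and at 11.35, 10.57 and 11.99 CPM in those of *Le-Cre*. Pools of the 3 lines overlapped on this scale, and the log2 fold change in *Le-Cre* relative to *FVB/N* was 0.17 (SE 0.118, 95% interval −0.12 to 0.45). As TPM the *Hyal2* pools of *Le-Cre* (9.65 to 11.95) and *FVB/N* (7.02 to 8.90) did not overlap, while its effective length was 1010 to 1247 bases in *Le-Cre* and 1229 to 1467 bases in *FVB/N*. The part of isoform use in this was not tested.

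With *Hyal2* higher in TPM and *Hyal1* and *Hyal3* lower, the TPM sum over the 3 hyaluronidase genes overlapped between lines. It was 15.47, 22.04 and 19.93 TPM in the *FVB/N* pools, 14.74, 18.42 and 17.19 TPM in those of *P0-3.9GFPCre* and 16.71, 15.39 and 14.61 TPM in those of *Le-Cre*. *Hyal1* made up 36.2% to 40.06% of that sum in *FVB/N*, 17.68% to 35.5% in *P0-3.9GFPCre* and 19.3% to 21.83% in *Le-Cre*. The overlap of *Le-Cre* with *FVB/N* holds for TPM, in which the effective length of *Hyal2* enters, and not for CPM. From the counts, *Hyal2* differed by 0.17 on the log2 scale, against −1.25 for *Hyal1* and −1.002 for *Hyal3*. A similar total of hyaluronidase RNA was therefore not shown.

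Most synthase TPM was assigned to *Has3*, which made up between 78.43% and 98.58% of it in every pool. This assignment was less certain than that of *Hyal1* or *Nat6*. RSEM's posterior SD was between 8.9% and 28.14% of the posterior mean count of *Has3*. *Has3* also shares 4.77% of its stretches with *Chtf8* on the opposite strand, and the part of such reads in its level was not tested. *Has3* was at 5.08, 2.88 and 2.17 CPM in the *FVB/N* pools, at 3.07, 3.26 and 7.03 CPM in those of *P0-3.9GFPCre* and at 1.56, 4.82 and 4.31 CPM in those of *Le-Cre*. In each line 1 pool lay far from the others, and the pools of all lines overlapped. The log2 fold change was 0.06 (SE 0.458, 95% interval −1.06 to 1.18) in *Le-Cre* relative to *FVB/N*, an interval that includes 2-fold differences in both directions. *Has1* rested on 3 to 15 expected counts per pool, and its log2 fold change was −0.24 (SE 0.779). *Has2*, the synthase gene that is required in heart development, had 0, 1 and 0 expected counts in *FVB/N*, 1, 4 and 0 in *P0-3.9GFPCre* and 5, 6 and 0 in *Le-Cre*. It did not pass the filter on low counts and was not tested. A pool with 0 counts still allows 3 counts, which is 0.111 to 0.135 CPM of the library total in the pools concerned, so *Has2* was not detectable there rather than absent.

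*Cd44*, the main cell-surface receptor for hyaluronan, was at 58.81, 50.45 and 61.22 CPM in the *FVB/N* pools, at 58.36, 51.88 and 69.35 CPM in those of *P0-3.9GFPCre* and at 76.31, 71.81 and 69.97 CPM in those of *Le-Cre*. On this scale all *Le-Cre* pools were above the pools of both other lines, narrowly so for *P0-3.9GFPCre* (69.97 against 69.35 CPM). The log2 fold change in *Le-Cre* relative to *FVB/N* was 0.36 (SE 0.106), a difference of 1.28-fold. As TPM the *Le-Cre* pools (23.16 to 30.21) overlapped those of *P0-3.9GFPCre* (19.88 to 23.74) but not those of *FVB/N* (19.33 to 20.83).

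Of the 7 genes that passed the filter, 3 (*Hyal1*, *Nat6* and *Hyal3*) had all *Le-Cre* pools below all *FVB/N* pools and 1 (*Cd44*) had them above. Among the 15557 genes tested, 7.03% had *Le-Cre* pools entirely below and 6.46% entirely above. The median log2 fold change was −0.24 over the 7 members and −0.00404 over all genes. Across all genes, 0.0643% passed the cutoff in this comparison, which was a change by 1.5-fold or more together with an adjusted p no higher than 0.05. As the members were chosen on these pools, nothing is read from those counts. Some lens epithelium markers were also lower in this comparison. Of the 5 markers, 2 had all *Le-Cre* pools below all *FVB/N* pools, *Pdgfra* at 24.0 to 26.3 TPM against 30.3 to 31.2 TPM and *Cdh1* at 32.9 to 34.1 TPM against 36.2 to 38.2 TPM. The other 3 markers overlapped, and the part of epithelial RNA in the lower levels of the 3 genes was not tested.

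**Figure D3:**
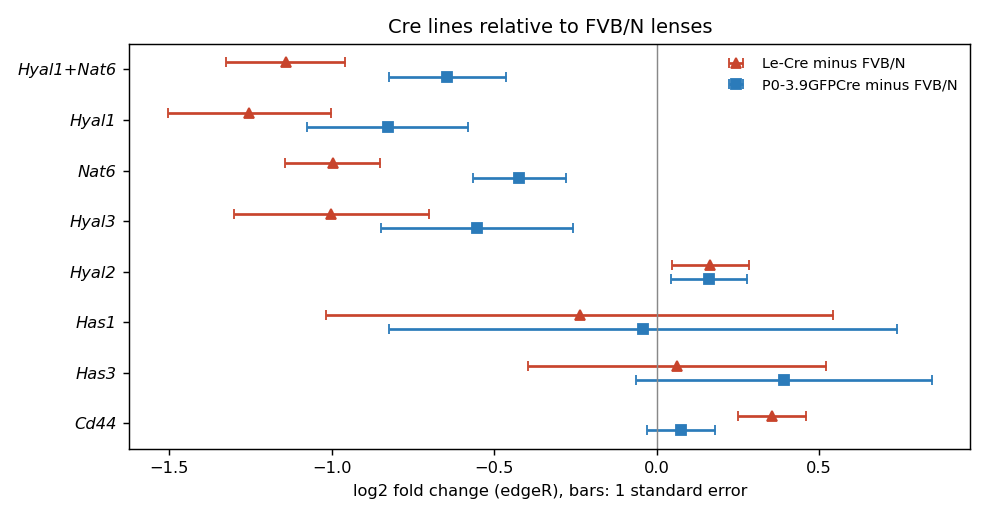
Log2 fold changes of the 7 genes that passed the filter, and of the sum of *Hyal1* and *Nat6*, in *Le-Cre* (triangles) and *P0-3.9GFPCre* (squares) relative to *FVB/N*, with bars of 1 standard error. *Hyal1*, *Nat6* and *Hyal3* lie below 0 in both lines, between −1.25 and −0.997 for *Le-Cre* and between −0.83 and −0.42 for *P0-3.9GFPCre*. Both comparisons use the same *FVB/N* pools.

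The *P0-3.9GFPCre* lenses were compared with the same *FVB/N* pools. Because *Hyal1* and *Nat6* had been chosen by their difference from those pools, their differences here are also a description, with no test. *Hyal1* differed by −0.83 on the log2 scale (SE 0.248), *Nat6* by −0.42 (SE 0.143) and the sum of the pair by −0.64 (SE 0.180). In CPM, though not in TPM, *Nat6* had all *P0-3.9GFPCre* pools below all *FVB/N* pools, as in 5.94% of all genes. It was the only such member, and nothing is read from that count. The 5 other members that passed the filter were tested. None of the 5 passed the cutoff, by which 0% of all genes were called, and none had an unadjusted p under 0.05. *Hyal3* differed by −0.55 (SE 0.296, adjusted p = 0.766, from the quasi-likelihood test of edgeR after Benjamini-Hochberg correction).

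The remaining 4 genes differed by 0.39 or less on the log2 scale in *P0-3.9GFPCre* lenses. The log2 fold change was 0.16 for *Hyal2* (95% interval −0.13 to 0.45), 0.08 for *Cd44* (95% interval −0.19 to 0.34), 0.39 for *Has3* (95% interval −0.72 to 1.51) and −0.04 for *Has1* (95% interval −1.96 to 1.87). Their adjusted p-values by edgeR ranged from 0.835 for *Hyal2* to 0.996 for *Has1*. The intervals of *Has1* and *Has3* include 2-fold differences in at least 1 direction, so similar levels were not shown for them.

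The transgenic lines were also compared with each other. *Nat6* was lower in all *Le-Cre* pools than in all *P0-3.9GFPCre* pools, as were 7.37% of all genes, with a log2 difference of −0.57 (SE 0.147), and the sum with *Hyal1* by −0.50 (SE 0.184). For *Hyal1* alone the difference was −0.43 (SE 0.255). Without *P0-3.9GFPCre* replicate 2 the difference was −0.24 (SE 0.14) for the sum and −0.02 for *Hyal1*. For these genes the *Le-Cre* pools had guided the choice, and no test is given. Among the 5 other members that passed the filter, *Cd44* was higher in CPM, though not in TPM, in all *Le-Cre* pools. Its log2 difference was 0.28 (SE 0.106, 95% interval 0.02 to 0.54, unadjusted p = 0.0231, adjusted p = 0.532 by edgeR). It was the only one of the 5 with an unadjusted p under 0.05, which 3.63% of all genes reached while being higher in *Le-Cre*, and 6.74% of all genes had *Le-Cre* pools entirely above. *Hyal3* differed by −0.45 (SE 0.305, adjusted p = 0.766 by edgeR), *Has3* by −0.33 (adjusted p = 0.907), *Has1* by −0.20 (adjusted p = 0.977) and *Hyal2* by 0.00 (95% interval −0.28 to 0.29, adjusted p = 0.998). The cutoff was passed by 0 of the 5 genes and by 0% of all genes.

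The level of Y-linked transcripts, which only male cells make, moved with several of the genes. Across the 9 pools Pearson's correlation of log2 CPM with the log2 Y-linked level was 0.75 for *Hyal1*, 0.84 for *Nat6*, 0.83 for *Hyal3*, −0.85 for *Hyal2* and −0.77 for *Cd44*. With each line's mean removed it was 0.50, 0.82, 0.66, −0.83 and −0.61. The 9 points share their lines, libraries and normalization, and these values are descriptions. For *Has1* and *Has3* the correlations were −0.11 and −0.10.

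The *P0-3.9GFPCre* pools spanned most of the range of Y-linked levels. The *P0-3.9GFPCre* pool with a Y-linked level of 135 CPM, within the range of *FVB/N*, had 16.88 CPM of *Hyal1* and 12.17 CPM of *Nat6*. The *P0-3.9GFPCre* pool with a Y-linked level of 1.66 CPM had 8.07 CPM of *Hyal1* and 8.73 CPM of *Nat6*. For *Hyal1* the last value lay within the *Le-Cre* range of 7.79 to 8.81 CPM, and for *Nat6* it lay above the *Le-Cre* range of 6.63 to 7.98 CPM. The *Le-Cre* pool with the highest Y-linked level, 74.2 CPM, had 8.44 CPM of *Hyal1* and 7.98 CPM of *Nat6*, against 8.80 and 11.14 CPM in the *P0-3.9GFPCre* pool with a Y-linked level of 56.2 CPM.

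With the Y-linked level as a covariate, the log2 fold change in *Le-Cre* relative to *FVB/N* was −0.86 (SE 0.32) for *Hyal1*, −0.71 (SE 0.16) for *Nat6*, −0.80 (SE 0.21) for their sum, −0.49 (SE 0.36) for *Hyal3* and 0.19 for *Cd44*. The *Hyal2* value became −0.04. As no *Le-Cre* pool reached the Y-linked level of an *FVB/N* pool, the line and the sex composition of its pools cannot be fully told apart.

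**Figure D4:**
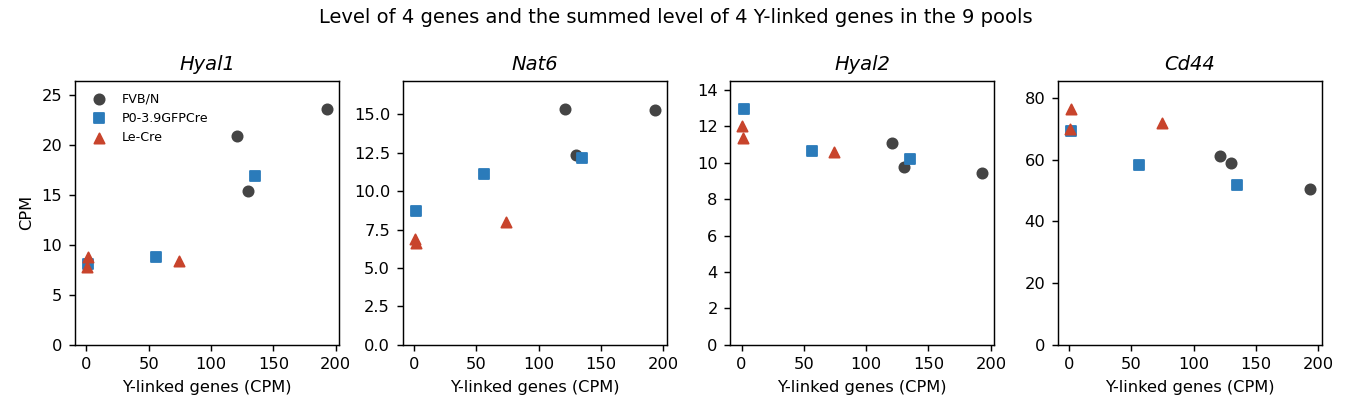
CPM of *Hyal1*, *Nat6*, *Hyal2* and *Cd44* (vertical axes, from 0) against the summed CPM of 4 Y-linked genes in the same pool (horizontal axes). Each point is 1 of the 9 pools, with shape and colour for the line. *Hyal1* and *Nat6* are higher in each of the 4 pools with a Y-linked level of 121 to 193 CPM than in the other pools, whereas for *Hyal2* and *Cd44* the highest values lie at the low end.

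Within the chromosome 9 cluster, *Hyal1*, *Nat6* and *Hyal3* also varied together. Over the 9 pools the correlation of log2 CPM was 0.89 between *Hyal1* and *Nat6*, 0.89 between *Hyal1* and *Hyal3* and 0.91 between *Nat6* and *Hyal3*. With line means removed it was 0.73, 0.76 and 0.89. *Hyal1* and *Nat6* share exonic sequence and hence reads, which can tie their estimates. *Hyal2* ran the other way, at −0.68 with *Hyal1* and −0.63 with *Nat6*, and so did *Cd44*, at −0.79 and −0.86.

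Among all tested genes outside the set, those most like *Hyal1* over the 9 pools were *Ank3* (0.959), *Bex2* (0.956), *Mpped2* (0.954), *Aldoa* (0.954) and *Rcan2* (0.952). Among those most like *Nat6* were *Loxl2* (0.979), *Emilin3* (0.957), *Scn11a* (0.956) and *Rab3il1* (0.951). These are Pearson correlations of log2 CPM, among the highest of 15557 genes, and all points share the same libraries.

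The genes around the cluster were compared in the same way. Of the 17 other protein-coding genes within 250 kb, 16 were tested, and 0 passed the cutoff in *Le-Cre* relative to *FVB/N*. Their log2 fold changes lay between −0.26 and 0.70, with −0.09 as the median. *Hyal2*, at 0.17, lay within that range. All neighbours lay above the −0.997 of *Nat6* and the −1.002 of *Hyal3*. As *Hyal1* and *Nat6* had been chosen for their fall in this comparison, nothing is read from that difference. An unadjusted p under 0.05 was reached by 2 of 16, *Slc38a3* (−0.19, unadjusted p = 0.0301, adjusted p = 0.586 by edgeR) and *Sema3f* (−0.26, unadjusted p = 0.0495, adjusted p = 0.629 by edgeR), both lower, against 4.35% of all genes. The neighbours with the highest levels, *Gnai2* and *Rbm5*, differed by 0.03 (SE 0.06) and −0.09 (SE 0.08). The genes nearest to the cluster, named here for their position, were *Tusc2*, which ends 1.8 kb before *Hyal2* (0.05, SE 0.09), and *Ifrd2*, which begins 0.3 kb after *Hyal3* (−0.17, SE 0.11). Relative to *FVB/N*, *P0-3.9GFPCre* lenses also had 0 of 16 neighbours past the cutoff and 1, *Slc38a3*, lower at an unadjusted p under 0.05, against 3.41% of all genes. *Le-Cre* against *P0-3.9GFPCre* likewise gave 0 and 1 (*Nprl2*, −0.25), where 4.25% of all genes were lower at this level.

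**Figure D5:**
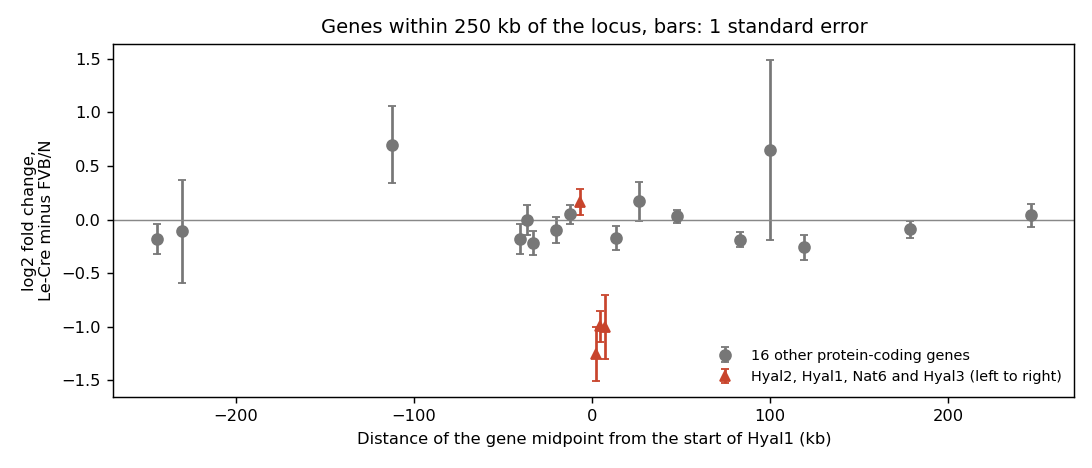
Log2 fold change in *Le-Cre* relative to *FVB/N* (vertical axis) for genes within 250 kb, by distance of the gene midpoint from the start of *Hyal1* in kb. Bars are 1 standard error, triangles are *Hyal2*, *Hyal1*, *Nat6* and *Hyal3* from left to right, and circles are the 16 other tested genes, which lie between −0.26 and 0.70.

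The rest of the hyaluronan pathway was read from a list of 43 genes, 24 of which were tested. The cutoff was passed by 0 of them in each of the 3 comparisons. Between *Le-Cre* and *FVB/N*, 3 of 24 had an unadjusted p under 0.05, all 3 of them higher in *Le-Cre*, against 3.6% of all genes. They were *Vcan*, which encodes the hyaluronan-binding proteoglycan versican (log2 fold change 0.87, unadjusted p = 0.0492, adjusted p = 0.629 by edgeR), *Hapln3*, for a link protein (0.71, unadjusted p = 0.0194, adjusted p = 0.531 by edgeR), and *Tnfaip6*, for an inducible hyaluronan-binding protein (0.60, unadjusted p = 0.00842, adjusted p = 0.438 by edgeR). *Tnfaip6* and *Hapln3* had all *Le-Cre* pools above all *FVB/N* pools, as did 5 of the 24 genes, against 6.46% of all genes. The third, *Vcan*, overlapped. The list's median was 0.08.

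By role, the precursor genes, which supply the nucleotide sugars, lay between −0.25 and 0.12 in *Le-Cre* relative to *FVB/N* over 7 tested genes, with 0.02 for *Gfpt1*, which encodes the rate-limiting enzyme of the hexosamine pathway. Among the other genes of breakdown, *Hexa*, for a subunit of a lysosomal glycosidase, was at 0.06 (SE 0.08). *Tmem2*, for a cell-surface hyaluronidase unrelated to the HYAL family, was at 55.03 ± 3.23 CPM in wild-type lenses, 56.15 ± 2.78 CPM in those of *P0-3.9GFPCre* mice and 54.51 ± 3.19 CPM in those of *Le-Cre* mice, with a log2 fold change of −0.01 (SE 0.07) in *Le-Cre*. The hyaluronidase genes *Hyal4*, *Hyal6* and *Spam1* had 0 counts in all pools. The other receptor genes lay between −0.08 and 0.36 over 6 tested genes, with *Stab1*, for an endocytic hyaluronan receptor family member, at −0.08 (SE 0.07). The binding and matrix protein genes had a median of 0.61 over 7 tested genes and ranged from −0.31 to 0.92. Both ends were genes of low level, *Impg2* (SE 0.51, mean 0.87 CPM) and *Ncan* (SE 0.91, mean 0.26 CPM). *Habp4*, which had the highest level of the 7 (mean 41.63 CPM), was at −0.09 (SE 0.09). Between *P0-3.9GFPCre* and *FVB/N*, 0 of 24 had an unadjusted p under 0.05, and the median was −0.02. The median in *Le-Cre* against *P0-3.9GFPCre* was 0.07.

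The partners of *Nat6* in function were the other amino-terminal acetyltransferase genes and the genes of actin and profilin, the protein that presents actin to NAT6. Of 16 such genes, 15 were tested, and 0 passed the cutoff in any of the 3 comparisons. Between *Le-Cre* and *FVB/N* they differed by −0.28 to 0.28 on the log2 scale (median 0.05), and 1 of 15, *Naa30* (−0.28, unadjusted p = 0.0378, adjusted p = 0.596 by edgeR), was lower at an unadjusted p under 0.05, against 4.35% of all genes. *Actb* and *Actg1*, the cytoplasmic actin genes whose products NAT6 acetylates, differed by 0.11 (SE 0.08) and 0.07 (SE 0.09), and *Pfn1* by 0.08 (SE 0.12). *Naa15*, for the auxiliary subunit of the major ribosomal acetyltransferase, differed by 0.10 (SE 0.06). In *P0-3.9GFPCre* relative to *FVB/N*, 1 of 15 (*Naa60*, −0.25, adjusted p = 0.651 by edgeR) was lower at an unadjusted p under 0.05, against 3.41% of all genes. In *Le-Cre* against *P0-3.9GFPCre* 2 of 15 reached that level, *Naa16* (0.34, adjusted p = 0.543 by edgeR), where 3.63% of all genes were higher, and *Naa40* (−0.25, adjusted p = 0.553 by edgeR), where 4.25% of all genes were lower.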

How the data were processed

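Adapters and low-quality ends were removed by the authors with Trimmomatic 0.36, reads were mapped to GRCm38 with GSNAP, and genes were quantified with RSEM 1.3.0. The annotation release is not given in the sources used here. The deposited tables hold 1 pool each, with expected counts (estimated reads per gene, not normalized), TPM (scaled by the authors' RSEM run for length and depth), transcript and effective lengths in bases, and posterior means with their SD, a deposited score of assignment uncertainty in counts.

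The expected counts were rounded and analysed in R 4.3.3 with edgeR 4.0.16 (TMM, filterByExpr, 1 coefficient per line over all 9 pools, quasi-likelihood test, Benjamini-Hochberg adjustment over 15557 genes). For the sums, the summed counts replaced the rows of their genes. A call required a change by 1.5-fold or more and an adjusted p no higher than 0.05, the cutoff of the study, which used DESeq2. DESeq2 1.42.0 and limma 3.58.1 on log2(TPM + 0.1) were alternatives, and the scripts were tested on simulated data. The SE is the size of a log2 fold change over the square root of its F. The 95% intervals were built from this SE with 6 residual degrees of freedom. In *Le-Cre* relative to *FVB/N* they describe precision and are no test. TPM comparisons had no test, and no p is given in any comparison for *Hyal1*, *Nat6* or their sums, which were chosen on these values. With 3 pools per line, p-values measure the spread between pools of pups. Limits on counts of 0 cover counting error only.

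Groups came from the sample labels. Of 47729 gene identifiers, 47224 matched GENCODE M21 (GRCm38), as did 36 of the 36 transcripts listed for the members. GENCODE M21 can also hold sequence that the RSEM run did not use. For *Has1* it gave 4557 stretches of 51 bases, where RSEM had 1 transcript with an effective length of 2040 bases. The shared sequence of *Hyal1* and *Nat6* is that of GENCODE M21 and may differ from what RSEM used. The members and lists were chosen with earlier results of these data known. Named genes were the 8 members, list genes past the cutoff, up to 3 of the highest CPM per list and role, and the 5 genes most correlated with *Hyal1* and with *Nat6*, and some genes that this rule names are not reported here. *Hapln3*, *Ncan*, *Impg2*, *Sema3f*, *Nprl2*, *Naa16*, *Naa30*, *Naa40*, *Naa60*, *Cdh1*, *Pdgfra* and *Pax6* were named after their values were seen. Same-numbered pools did not deviate together (mean correlation 0.03 over 9 pairs, from −0.10 to 0.12), so the numbers were not used to pair pools. No pools were duplicates by a chi-square test of counts within lines (9.43 to 39.3 per degree of freedom).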

Additional observations from a re-analysis of the deposited data

How the results depend on the processing

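In *Le-Cre* relative to *FVB/N*, *Hyal1*, *Nat6*, *Hyal3* and the sum of *Hyal1* and *Nat6* stayed negative under every alternative run. Values for *Hyal1*, *Nat6* and the sum were −0.64, −0.65 and −0.74 under DESeq2 with a normal prior, which shrinks fold changes by construction, −0.86, −0.71 and −0.80 with the Y-linked level as a covariate, and −0.96, −0.80 and −0.96 from TPM with a pseudocount of 1, which also shrinks low values. Leaving out 1 pool gave −1.41 to −1.12 for *Hyal1*, −1.09 to −0.94 for *Nat6* and −1.27 to −1.04 for the sum. Of 528 refitted log2 fold changes, 29 changed sign, all of *Hyal2*, *Has1*, *Has3* or *Cd44*, and the cause was not tested. In *Le-Cre* relative to *FVB/N* they included *Has3* at −0.12 and *Hyal2* at −0.04 with the covariate, and *Has3* at −0.03 and 0.00 from TPM. With 1 pool left out, the values ran across both signs, from −1.29 to 0.42 for *Has1* and from −0.22 to 0.49 for *Has3*. In *P0-3.9GFPCre* relative to *FVB/N* they were *Has1* at 0.01 with library totals, *Cd44* at −0.02 with the covariate, and, with 1 pool left out, *Has1* from −0.45 to 0.61, *Has3* from −0.10 to 0.82 and *Cd44* from −0.04 to 0.17. In *Le-Cre* against *P0-3.9GFPCre* the changes of sign included *Hyal2* at −0.01 with library totals and −0.08 with the covariate. The ranges with 1 pool left out again ran across both signs, −0.06 to 0.12 for *Hyal2*, −1.25 to 0.21 for *Has1* and −0.62 to 0.16 for *Has3*.

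The replicate block, a fit with the replicate number as a factor, gave 2 genes called in *Le-Cre* relative to *FVB/N* instead of 10 and left *Hyal1* at −1.23, *Nat6* at −1.0 and the sum at −1.13, with *Has3* at −0.03. The pools share only a number, so this is no paired design.

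Counts over all genes depended on the fit. For *Le-Cre* relative to *FVB/N* (10 genes) they were 131 without the filter on low counts, 5 with a mean of at least 10 counts, 49 with DESeq2 without a prior, 0 with the Y-linked covariate, 1 from TPM with either pseudocount, and 0 to 10 with 1 pool left out, with 0 or 1 without any single *FVB/N* or *Le-Cre* pool. For *P0-3.9GFPCre* relative to *FVB/N* (0 genes) they were 93 without the filter, 11 and 1 with DESeq2 without and with a prior, and 0 to 14 with 1 pool left out, where 14 was reached without *FVB/N* replicate 2. For *Le-Cre* against *P0-3.9GFPCre* (0 genes) they were 123 without the filter, 32 and 4 with DESeq2, 31 with the compared pools alone, 2 and 1 from TPM, and 0 to 18 with 1 pool left out, where 18 was reached without *FVB/N* replicate 2. In the hyaluronan list 3 and 1 genes, in *Le-Cre* relative to *FVB/N* and to *P0-3.9GFPCre*, had an unadjusted p under 0.05 where 0 passed the cutoff. Depth limits *Has1* and *Has2*, at 15 counts or fewer in every pool.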
